A study of Mus musculus with 10 samples.

Results

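The transcripts of phase II xenobiotic conjugation enzymes were examined in 2 sorted fractions of mouse small intestinal epithelium, the GUCY2C-hi cells, which contain the neuropod and enteroendocrine cells of interest to the study, and the GUCY2C-med cells, which stand for the remaining epithelium. Members were chosen by name alone. They were the protein-coding genes of the alpha, kappa, mu, omega, pi, theta and zeta classes of cytosolic glutathione transferases (Gst), the microsomal glutathione transferases (Mgst), the UDP-glycosyltransferases (Ugt), the sulfotransferases (Sult) and the arylamine N-acetyltransferases Nat1 and Nat2. This gave 70 of 54532 genes in the table, namely 25 Gst or Mgst, 22 Ugt, 21 Sult and 2 Nat genes. Both fractions came from 5 litter-matched Gucy2c-GFP reporter mice on the outbred CD1/ICR background, aged 10 weeks, and all mice carried the same transgene, in which the Gucy2c promoter drives GFP. From each mouse, 20000 cells with high and 20000 with medium GFP signal gave 1 RNA library each, so that there were 5 libraries per group and 10 in all. The medium fraction is called both Medium and Lo in the sample names. The numbers 2, 7, 12, 14 and 15 in those names were taken as the mice, and values of 5 libraries are always listed in that order.

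Phase II enzymes attach a polar group to a foreign or endogenous compound, which makes it more soluble and ready for export. Glutathione transferases add glutathione, UDP-glucuronosyltransferases add glucuronic acid from UDP-glucuronate, sulfotransferases add sulfate from the activated donor PAPS, and N-acetyltransferases add an acetyl group. In the small intestine these enzymes are best known from absorptive enterocytes, where they act on dietary compounds and drugs before these reach the portal blood.

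Between 13090212 and 13520800 reads were counted per GUCY2C-hi library and between 10903958 and 15307932 per GUCY2C-med library. Levels are read counts scaled to library size (cpm) by edgeR's TMM method, and means are given ± SD over 5 mice. A gene was tested if it had over 0.5 cpm, taken before TMM scaling, in at least 3 libraries. Gucy2c itself, the gene whose promoter marks the cells, was higher in the GUCY2C-hi library of 5 of 5 mice (log2 fold change 1.71, SE 0.32, adjusted p = 0.00187, edgeR). All 22 enteroendocrine markers were higher in GUCY2C-hi cells. Among them, Isl1, Pax6 and Rfx6 passed the filter only through their GUCY2C-hi libraries, so the calls of these genes carry no weight. Of 22 enterocyte markers, 6 were lower and none higher. The summed enterocyte markers were 6436, 5775, 35719.9, 6953 and 36473 cpm in the GUCY2C-hi libraries, against 86133, 67442, 77563, 78036 and 85751 cpm in GUCY2C-med. The GUCY2C-hi libraries of mice 12 and 15 therefore stood apart, with several times the enterocyte marker RNA of the other 3. The summed T cell markers, 0 of 8 called, were also highest there, at 46.6, 27.7, 275, 65.4 and 233 cpm in GUCY2C-hi against 33.3, 37.0, 125, 181 and 50.9 cpm in GUCY2C-med libraries, and their part in the results below was not tested. Of the other marker lists, proliferation genes were lower (10 of 12), while the summed hepatocyte markers ran from 25.8 to 134 cpm in GUCY2C-hi and from 2.89 to 7.88 cpm in GUCY2C-med libraries. Of the 10 hepatocyte genes, Alb, F2, Hpx and Tat passed the filter only through their GUCY2C-hi libraries, so their calls are not counted, and Fga, Fgb, Fgg, Ahsg and Serpinc1 were at 0.471 cpm or less in every library. Among the remaining lists, 0 of 8 goblet and 0 of 6 Paneth genes passed the test. Their sums varied widely between GUCY2C-hi libraries and were highest in mouse 2. Goblet sums ran from 3060 to 23486 cpm in GUCY2C-hi, against 4922 to 13118 cpm in GUCY2C-med libraries. Paneth sums ran from 6163 to 45619 cpm, against 6519 to 15331 cpm. Their part in the results below was not tested. In sorted pools, fewer cells of a type and less RNA per cell cannot be told apart.

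Most conjugation enzymes that differed were lower in GUCY2C-hi cells, and 3 were called higher. Of the 70 members, 45 passed the filter on low counts. By edgeR's quasi-likelihood test at a Benjamini-Hochberg adjusted p under 0.01 over all 15703 genes tested, 17 of the 45 were lower and 3 were higher, beside a background of 8.79% of all genes lower and 13.9% higher. The 17 were Gsta1, Gsta2, Gsta3, Gstm1, Gstm2, Gstm3, Gstm4, Gstm6, Gstm7, Gstp1, Gstt3, Mgst1, Ugt1a1, Ugt2b34, Ugt2b35, Ugt2b36 and Sult2b1. The 3 were Gsto2, Gstt1 and Ugt8a. Of these, Gsto2 and Ugt8a passed the filter only through their GUCY2C-hi libraries, so their calls carry no weight. By family, 12 of 24 glutathione transferases were lower and 2 higher, 4 of 13 UDP-glycosyltransferases were lower and 1 higher, and 1 of 7 sulfotransferases was lower, while Nat2, the 1 acetyltransferase tested, was not called. The median log2 fold change over the 45 was -1.59, beside 0.09 over all genes tested, and 38 of 45 lay below 0, beside 45.4% of all genes. All GUCY2C-hi libraries lay below all GUCY2C-med libraries for 26 members, beside 13.2% of all genes, and above them for 3, beside 16.7%. At an adjusted p under 0.05 the counts were 29 lower and 3 higher, beside 17.6% and 21.4% of all genes.

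**Figure D1:**
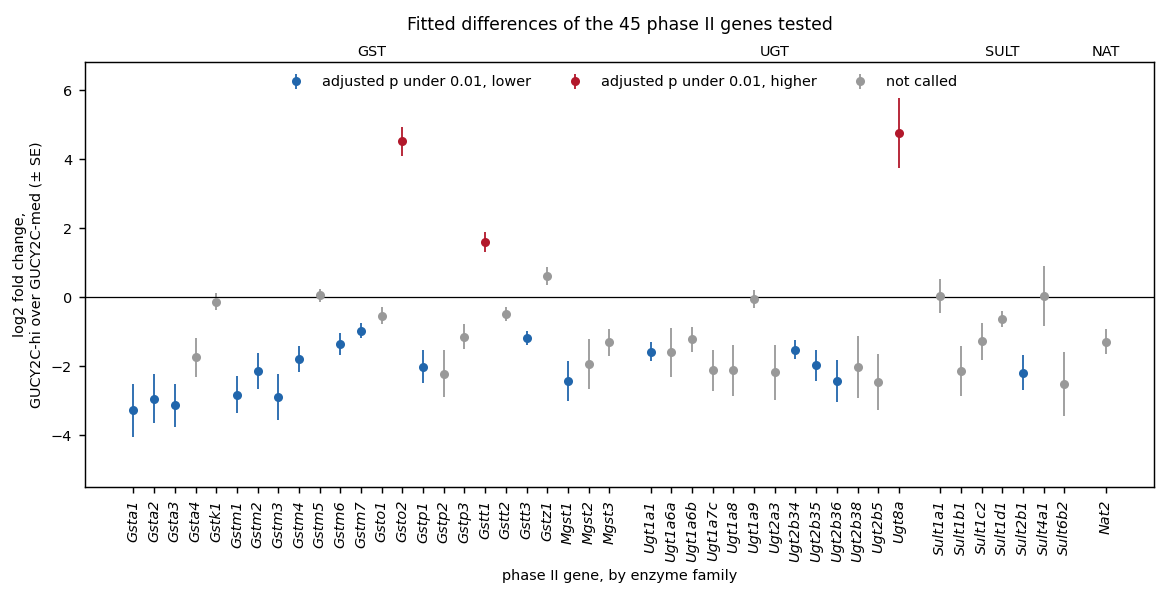
Log2 fold change of GUCY2C-hi over GUCY2C-med (vertical axis, ± SE from edgeR, 5 libraries per group) for each of the 45 phase II genes tested, ordered by enzyme family; blue and red mark an adjusted p under 0.01. The values run from -3.27 for Gsta1 to 4.75 for Ugt8a, and only Gsto2, Gstt1 and Ugt8a are red.

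The number of lower members depended on single libraries, and the share of all genes called lower, 8.79% in the main fit, also changed. The number was 4 without the GUCY2C-hi library of mouse 2 (3.32% of all genes), 7 without that of mouse 7 (3.8%) and 6 without that of mouse 14 (4.48%). It was 5, 7, 5, 6 and 4 without the GUCY2C-med library of mouse 2, 7, 12, 14 or 15 (4.38%, 6.18%, 4.78%, 4.86% and 3.4% of all genes). It was 18 and 20 without the GUCY2C-hi library of mouse 12 or 15 (9.1% and 10.4%). With both of these GUCY2C-hi libraries left out, an alternative added after their enterocyte marker levels were seen, 29 members were lower, including all 17, and 4 were higher. In that fit 14.4% of all genes were lower and 17.9% higher. Gstm1, Gstt3, Ugt1a1, Gsto2 and Gstt1 were called in all 10 fits that left out 1 library. For Gsto2 this carries no weight, as it passed the filter only through its GUCY2C-hi libraries. The other 15 called members lost the call in at least 1 fit. Gsta3 lost it only without the GUCY2C-hi library of mouse 7, and Ugt2b34 only without the GUCY2C-hi library of mouse 2 or the GUCY2C-med library of mouse 15. Gstm4 and Ugt8a lost it in 5 of these fits, Gstm7 in 6, Gsta1 and Gstm3 in 7, Ugt2b36 in 9 and the remaining 7 members in 8. With the mouse number as a block in edgeR, 7 members were lower (Gstm6, Gstm7, Gstp1, Gstt3, Ugt1a1, Ugt2b34 and Sult2b1) and 1, Gsto2, was higher, beside 4.96% and 8.24% of all genes. Without TMM scaling, 9 were lower and 3 higher, beside 3.55% and 18.5% of all genes, and the median log2 fold change of all genes moved from 0.09 to 0.39. For each of the 20 called members the groups did not overlap, which alone fixes the p of an exact two-sided permutation test on log2(cpm + 0.5), with the mice unpaired, at 0.00794, the smallest that 5 against 5 libraries allow.

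Promoters of 4 lower members (Gsta3, Gstm1, Gstp1 and Ugt1a1) and of 2 higher ones (Gsto2 and Ugt8a) are shown to set the regulatory sequence of both directions side by side. RefSeq (GRCm38.p6) gives a start for 60 of the 70 members, and the 250 bases before each start were searched on both strands. The antioxidant response element core TGACNNNGC, the site of the oxidative stress factor Nfe2l2, was held by 4 of 60 member promoters (6.67%), beside 11.5% of 27025 genes. It was in 3 of the 17 lower members (17.6%), 0 of 3 higher and 1 of 20 tested but not called (5.0%). The xenobiotic response element core GCGTG, the site of the Ahr and Arnt pair, was held by 12 of 60 (20.0%), beside 30.9% of all genes. It was in 4 of the 17 lower members (23.5%), 1 of 3 higher and 6 of 20 not called (30.0%). These splits rest on few genes and were not tested. The HNF4 site CAAAGTNCA was in 0 of 60, beside 1.40%. Such matches describe letters and are not shown to be used. In the sequences, 5′ to 3′ on the gene's strand, capitals mark any of these motifs, and none of the printed matches overlaps another. Gsta3 holds an antioxidant core, Gstm1, Gstp1 and Ugt8a hold a xenobiotic core, and the Ugt1a1 and Gsto2 windows hold none of the 3.
Gsta3 promoter, chr1:21240335-21240584, plus strand: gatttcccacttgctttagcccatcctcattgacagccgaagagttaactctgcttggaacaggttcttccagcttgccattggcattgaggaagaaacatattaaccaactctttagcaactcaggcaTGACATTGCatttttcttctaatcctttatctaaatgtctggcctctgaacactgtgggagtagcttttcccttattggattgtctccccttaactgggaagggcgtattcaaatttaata
Gstm1 promoter, chr3:108017974-108018223, minus strand: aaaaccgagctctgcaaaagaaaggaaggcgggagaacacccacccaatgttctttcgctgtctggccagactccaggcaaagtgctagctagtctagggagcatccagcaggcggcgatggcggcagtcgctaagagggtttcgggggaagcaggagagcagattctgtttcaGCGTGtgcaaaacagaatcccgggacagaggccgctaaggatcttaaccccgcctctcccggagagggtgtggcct
Gstp1 promoter, chr19:4037913-4038162, minus strand: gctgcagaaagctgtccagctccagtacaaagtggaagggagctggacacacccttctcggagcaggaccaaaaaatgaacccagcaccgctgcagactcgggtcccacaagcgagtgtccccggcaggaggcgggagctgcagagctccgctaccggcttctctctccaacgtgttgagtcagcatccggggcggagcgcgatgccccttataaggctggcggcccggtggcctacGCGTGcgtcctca
Ugt1a1 promoter, chr1:88211709-88211958, plus strand: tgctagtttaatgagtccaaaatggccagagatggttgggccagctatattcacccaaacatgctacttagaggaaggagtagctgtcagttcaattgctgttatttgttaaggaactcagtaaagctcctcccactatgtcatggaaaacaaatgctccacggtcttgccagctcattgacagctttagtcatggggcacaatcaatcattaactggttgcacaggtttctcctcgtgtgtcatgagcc
Gsto2 promoter, chr19:47865295-47865544, plus strand: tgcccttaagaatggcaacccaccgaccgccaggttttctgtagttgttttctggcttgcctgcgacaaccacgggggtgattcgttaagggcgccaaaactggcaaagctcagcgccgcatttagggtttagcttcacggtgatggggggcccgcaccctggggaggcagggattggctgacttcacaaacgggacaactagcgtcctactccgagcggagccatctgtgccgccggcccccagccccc
Ugt8a promoter, chr3:125938653-125938902, minus strand: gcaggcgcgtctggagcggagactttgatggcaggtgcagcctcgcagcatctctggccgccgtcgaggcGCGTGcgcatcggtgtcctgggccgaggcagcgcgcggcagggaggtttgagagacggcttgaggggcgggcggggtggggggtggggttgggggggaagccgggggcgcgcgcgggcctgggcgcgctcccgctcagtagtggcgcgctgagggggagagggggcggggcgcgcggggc

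Alpha class glutathione transferases, which also reduce lipid peroxides, had the lowest median log2 fold change of the glutathione transferase classes (-3.03), with 3 of 4 members lower. Gsta1 (ENSMUSG00000074183, chr9:78230656-78242684, plus strand) had 6.66, 1.39, 19.2, 0.771 and 13.3 cpm in GUCY2C-hi and 75.1, 168, 51.0, 61.6 and 42.7 cpm in GUCY2C-med libraries, or 8.25 ± 7.90 against 79.6 ± 50.7 cpm (log2 fold change -3.27, SE 0.77, adjusted p = 0.00656). Gsta2 (ENSMUSG00000057933, chr9:78331018-78355788, minus strand) had 2.35, 1.33, 13.0, 1.39 and 13.0 cpm against 50.0, 92.0, 32.2, 32.8 and 30.6 cpm (log2 fold change -2.93, SE 0.70, adjusted p = 0.00705). For Gsta3, whose promoter is printed above, the levels were 3.70, 4.40, 12.7, 2.16 and 12.6 cpm against 35.7, 153, 36.9, 55.7 and 29.8 cpm (log2 fold change -3.13, SE 0.62, adjusted p = 0.00265). In all 3 genes the GUCY2C-hi libraries of mice 12 and 15 were the highest of their group, the GUCY2C-med library of mouse 7 was the highest of all, and the groups did not overlap. With the mouse as a block the adjusted p was 0.0252, 0.0201 and 0.0137, so that none passed. Gsta4, which prefers the lipid peroxidation product 4-hydroxynonenal, was not called (log2 fold change -1.74, adjusted p = 0.0317). Gsta1 and Gsta2 share 97.5% of their coding bases, with an identical run of 196 bases, so reads may have been split between them.

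The mu class, a tandem cluster of 7 genes at chr3:107895821-108044894, was lower in 6 of its 7 members. Its enzymes conjugate a wide range of electrophiles. Gstm3 (ENSMUSG00000004038, chr3:107963696-107969283, minus strand) had 192, 63.3, 779, 126 and 797 cpm in GUCY2C-hi and 2125, 2980.3, 2253, 3819 and 3251 cpm in GUCY2C-med libraries (log2 fold change -2.88, SE 0.66, adjusted p = 0.00567; with the mouse as a block, adjusted p = 0.0114). Gstm1 (ENSMUSG00000058135, chr3:108012255-108017973, minus strand) had 165, 72.9, 512, 93.3 and 347 cpm against 1658, 2273, 1222, 1964 and 1268 cpm (log2 fold change -2.82, SE 0.53, adjusted p = 0.00199; blocked, 0.0107). Both thus fell to a small share of their GUCY2C-med level in mice 2, 7 and 14 and to a larger share in mice 12 and 15, without overlap between the groups. Gstm2 had 18.8, 6.93, 62.2, 14.6 and 42.2 cpm against 67.1, 180.2, 135, 146 and 109.6 cpm (log2 fold change -2.14, SE 0.52, adjusted p = 0.00765; blocked, 0.0169). For Gstm4 the levels were 26.6, 14.7, 63.2, 33.7 and 71.4 cpm against 144, 149, 127, 175 and 129 cpm (log2 fold change -1.79, SE 0.37, adjusted p = 0.00344; blocked, 0.0104). The lowest GUCY2C-hi library was that of mouse 7 in both genes.

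The other mu members differed less. Gstm6 had 52.7, 38.0, 118, 70.5 and 131 cpm in GUCY2C-hi and 159, 238, 212, 210.0 and 232 cpm in GUCY2C-med libraries (log2 fold change -1.36, SE 0.32, adjusted p = 0.00641). Gstm7 had 42.2, 23.2, 55.0, 44.7 and 54.1 cpm against 82.7, 69.8, 90.6, 93.7 and 91.5 cpm (log2 fold change -0.97, SE 0.22, adjusted p = 0.00549). Both kept the call with the mouse as a block, and again the groups did not overlap. Gstm5, at one end of the cluster (ENSMUSG00000004032, chr3:107895821-107898686, plus strand), was the exception, with 55.6 ± 9.52 against 53.4 ± 11.6 cpm (log2 fold change 0.06, SE 0.19, adjusted p = 0.853) and overlapping groups. The cluster thus held 6 lower genes beside 1 whose group means lay within the spread between mice. Gstm1 and Gstm3 share 89.5% of their coding bases, with an identical run of 112 bases, and Gstm3 and Gstm6 share a run of 125 bases. Reads may therefore have been split among these genes, so the 6 calls may not be independent.

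Gstp1, the pi class enzyme, had the highest mean share of the glutathione transferase sum in GUCY2C-med cells per kilobase of gene length, although Gstm3 exceeded it in mice 7 and 15. It had 252, 196, 1021, 206 and 656 cpm in GUCY2C-hi and 1755, 1634, 1886, 2311 and 1764 cpm in GUCY2C-med libraries (log2 fold change -2.005, SE 0.47, adjusted p = 0.00626), and it kept the call with the mouse as a block. Its neighbor Gstp2 was not called (29.5 ± 29.9 against 136 ± 48.3 cpm, log2 fold change -2.21, adjusted p = 0.0224), nor was Gstp3 (-1.15, adjusted p = 0.0268). Gstp1 and Gstp2 share 98.1% of their coding bases, with 1 identical run of 303 bases, so the division of reads between them is uncertain. The first 90 coding bases of both (GENCODE vM1) are shown to make this plain, with the 6 differing positions in capitals.
Gstp1 coding sequence: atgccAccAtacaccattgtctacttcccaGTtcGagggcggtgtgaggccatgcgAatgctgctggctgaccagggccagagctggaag
Gstp2 coding sequence: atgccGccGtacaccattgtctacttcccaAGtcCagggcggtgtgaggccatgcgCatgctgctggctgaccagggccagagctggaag

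The microsomal enzymes, membrane proteins with glutathione transferase and peroxidase activity, gave 1 call. Mgst1 (ENSMUSG00000008540, chr6:138140316-138156755, plus strand) had 126, 73.5, 603, 102 and 506 cpm in GUCY2C-hi and 1057, 1965, 1489.9, 1724 and 1306 cpm in GUCY2C-med libraries (log2 fold change -2.42, SE 0.58, adjusted p = 0.00733; blocked, 0.0128). Its 3 lowest libraries were the GUCY2C-hi libraries of mice 2, 7 and 14, and the groups did not overlap. Mgst2, which can form leukotriene C4, was not called (log2 fold change -1.93, adjusted p = 0.0548), nor was Mgst3 (-1.30, adjusted p = 0.0189), and in both the groups overlapped.

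**Figure D2:**
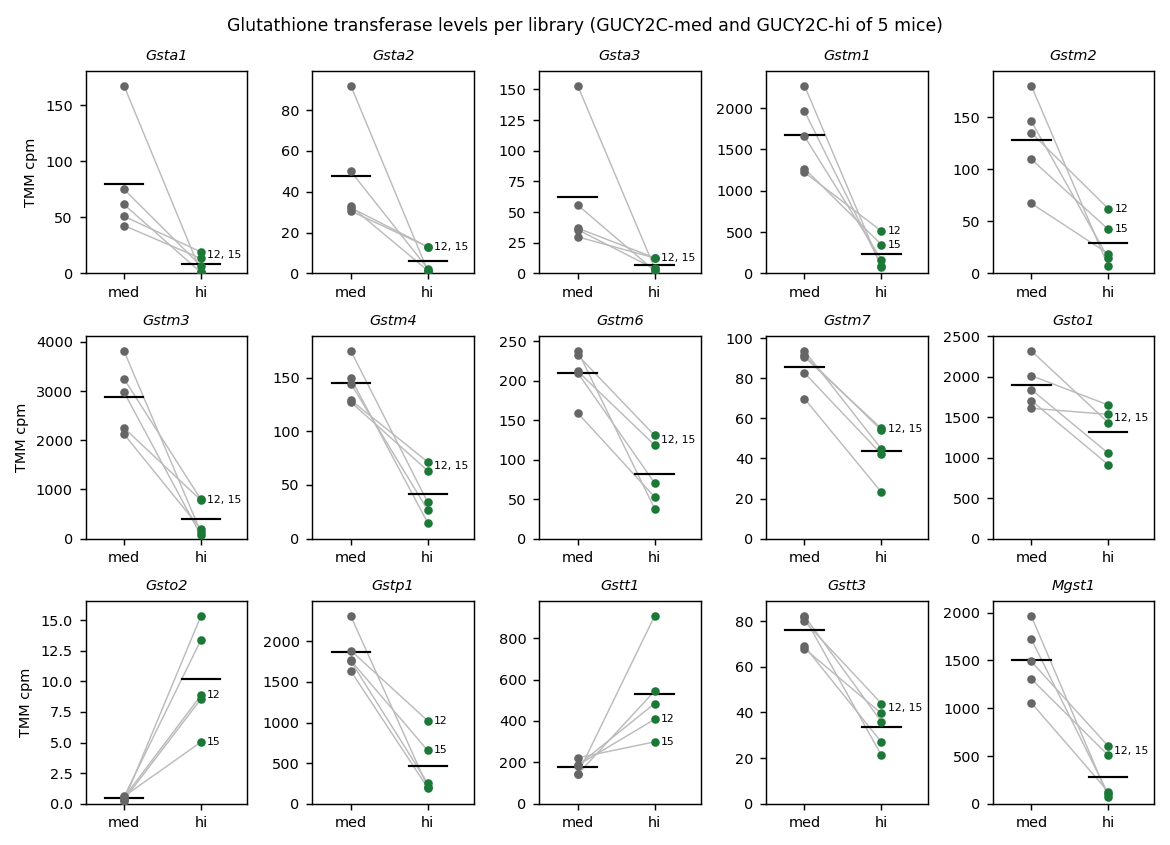
TMM-scaled cpm (vertical axes, linear from 0, scaled per gene) of the 15 named glutathione transferases in the GUCY2C-med (grey) and GUCY2C-hi (green) libraries; lines join the libraries of 1 mouse, horizontal bars are means of 5, and the GUCY2C-hi points of mice 12 and 15 are numbered. In the 12 genes that were lower these 2 points are the highest of the GUCY2C-hi group, while Gstt1 and Gsto2 run the other way.

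Theta class genes split. Gstt1, which conjugates small halogenated compounds (ENSMUSG00000001663, chr10:75783813-75798584, minus strand), was higher in GUCY2C-hi cells, with 484, 545, 408, 907 and 299 cpm against 185, 142, 186, 143 and 222 cpm in GUCY2C-med libraries (log2 fold change 1.59, SE 0.29, adjusted p = 0.00169; blocked, 0.0143). Gstt3, 2398 bases away on the same strand (ENSMUSG00000001665, chr10:75774115-75781414, minus strand), was lower, with 27.0, 21.2, 39.6, 35.9 and 43.9 cpm against 69.0, 81.7, 68.0, 82.2 and 79.9 cpm (log2 fold change -1.18, SE 0.20, adjusted p = 0.00117), and it kept the call with the mouse as a block. Neither gene's groups overlapped, although the order of the GUCY2C-hi libraries differed, since mice 12 and 15 had the lowest levels for Gstt1 and the highest for Gstt3. The summed enteroendocrine markers were 152759, 147411, 106614, 175742 and 43949 cpm in the same GUCY2C-hi libraries, highest in mouse 14 and lowest in mouse 15 as for Gstt1; their part in the Gstt1 result was not tested. The coding sequences of Gstt1 and Gstt3 are 75.2% identical, with no identical run above 35 bases. Gstt2 was not called (log2 fold change -0.49, adjusted p = 0.0819).

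Omega class enzymes, which act as thioltransferases and dehydroascorbate reductases, also split. Gsto2 (ENSMUSG00000025069, chr19:47865545-47886324, plus strand) reached 13.4, 8.56, 8.86, 15.3 and 5.04 cpm in GUCY2C-hi libraries, whereas the GUCY2C-med libraries held 0.562, 0.321, 0.504, 0.225 and 0.599 cpm (log2 fold change 4.51, SE 0.41, adjusted p = 2.33e-05), and it kept the call with the mouse as a block. No GUCY2C-med library held more than 7 of its reads. On cpm before TMM scaling, Gsto2 passed the filter only through its GUCY2C-hi libraries, so its call carries no weight. Gsto1, 754 bases before it, was not called, with 1054, 913, 1535, 1651 and 1433 cpm against 1842, 1705, 1610.1, 2013 and 2319.9 cpm (log2 fold change -0.53, SE 0.24, adjusted p = 0.0999). Gsto2 lies inside the span of Cfap43, a cilium and flagellum gene on the other strand (chr19:47737561-47919299), which was at 6.65, 4.15, 3.10, 4.54 and 1.45 cpm against 0.0935, 0.161, 1.15, 1.05 and 0.428 cpm (log2 fold change 2.74, SE 0.64, adjusted p = 0.00638). Cfap43 likewise would not have passed the filter without its GUCY2C-hi libraries, so its call carries no weight. Whether counting used the strand is not given in the sources used here, so reads of both genes over shared bases cannot be told apart. The same limit holds for Gsta3, which overlaps Gm28836, and for Sult2b1, which overlaps Lmtk3 and Gm31597, in each case on the other strand, while Gstt3 overlaps Gm20441 on its own strand. Of members not called, Gsto1 overlaps Cfap43, Gstm5 overlaps 4933431E20Rik, Gstz1 overlaps Gm6566 and Pomt2, and Sult1a1 overlaps Sgf29, all on the other strand. Mgst2 overlaps Gm37261 on its own strand.

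The kappa and zeta enzymes were not called. Gstk1, of mitochondria and peroxisomes, differed by -0.12 on the log2 scale (adjusted p = 0.746). Gstz1, which also degrades tyrosine, had 132 ± 50.1 against 86.1 ± 13.0 cpm (log2 fold change 0.62, SE 0.25, adjusted p = 0.0699). It was the 1 further member called higher without the GUCY2C-hi libraries of mice 12 and 15, which held its lowest GUCY2C-hi levels. As that fit was added after these libraries were seen to differ, this call carries no weight.

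The make-up of the glutathione transferase pool was compared per kilobase, which allows genes of different length to be set side by side. In GUCY2C-med libraries the mean shares of the family sum were 25.3% for Gstp1, 22.2% for Gstm3, 11.6% for Gstm1, 10.2% for Mgst3 and 9.93% for Gsto1. In GUCY2C-hi libraries they were 23.7% for Gsto1, 17.9% for Gstp1, 13.8% for Gstt1 and 12.7% for Mgst3. Gsto1 led in mice 2, 7 and 14, whereas Gstp1 led in mice 12 (26.6% against 15.4% for Gsto1) and 15 (21.6% against 18.2%). The share of Gstt1 ranged from 4.88% to 22.9% in GUCY2C-hi and from 0.79% to 1.52% in GUCY2C-med libraries, without overlap. The share of Gsto1 likewise did not overlap, at 15.4% to 32.4% against 8.50% to 12.3%, although its level was not called. For Gstm3 the shares were 2.85% to 15.2% against 18.8% to 25.9%. For Gstt1, Gsto1 and Gstm3 the GUCY2C-hi libraries of mice 12 and 15 lay nearer to GUCY2C-med than the other 3. These shares were not tested.

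**Figure D3:**
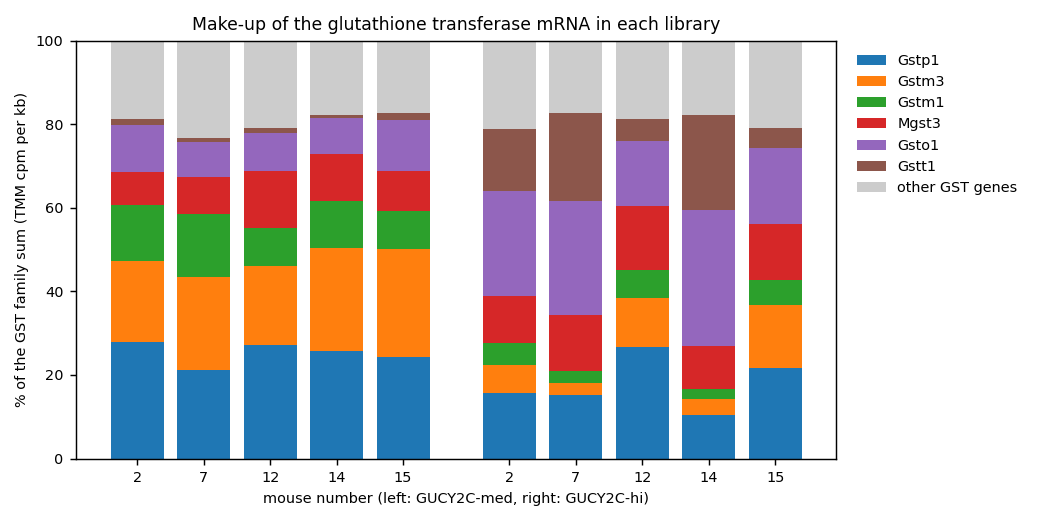
Share of each glutathione transferase in the family sum of TMM-scaled cpm per kilobase (vertical axis, percent) for each library, with GUCY2C-med mice on the left and GUCY2C-hi mice on the right; grey is the sum of the genes not named. Gstt1 takes 4.88% to 22.9% of the GUCY2C-hi bars and at most 1.52% of the GUCY2C-med bars.

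Of the UDP-glucuronosyltransferases that passed the filter, 4 were lower. Ugt1a1, the enzyme that conjugates bilirubin (ENSMUSG00000089960, chr1:88211959-88218997, plus strand), had 33.8, 32.6, 69.4, 54.0 and 88.5 cpm in GUCY2C-hi and 131, 195, 143, 153 and 204 cpm in GUCY2C-med libraries (log2 fold change -1.57, SE 0.29, adjusted p = 0.00177), and it kept the call with the mouse as a block. The groups did not overlap, and mice 12 and 15 had the highest GUCY2C-hi levels. The 9 Ugt1a genes of the table lie at chr1:88055388-88220002 and share their last exons, so their rows overlap and the assignment of reads among them is uncertain. With their counts summed to 1 gene, the locus was still lower (log2 fold change -1.64, SE 0.35, adjusted p = 0.00402). Ugt1a9 had 26.9 ± 9.62 against 27.7 ± 6.09 cpm (log2 fold change -0.05, SE 0.25, adjusted p = 0.921) and Ugt1a7c had 53.6 ± 50.1 against 233 ± 35.9 cpm (log2 fold change -2.12, SE 0.59, adjusted p = 0.0154), neither of them called. Ugt1a6a, Ugt1a6b and Ugt1a8 were each below 4 cpm on average in both groups and not called.

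Ugt2b genes, a cluster of 7 at chr5:86889767-87424203 whose enzymes conjugate steroids, bile acids and drugs, gave 3 lower members. Ugt2b34 (ENSMUSG00000029260, chr5:86889767-86906937, minus strand) had 171, 139, 290.4, 196 and 395 cpm in GUCY2C-hi and 662, 721, 527, 693 and 797 cpm in GUCY2C-med libraries (log2 fold change -1.51, SE 0.29, adjusted p = 0.00221), and it kept the call with the mouse as a block. Ugt2b35 had 18.4, 8.74, 30.7, 11.02 and 53.0 cpm against 72.3, 101, 72.5, 119 and 113 cpm (log2 fold change -1.97, SE 0.44, adjusted p = 0.00532; blocked, 0.01002). Ugt2b36 had 11.4, 5.85, 33.9, 5.01 and 57.9 cpm against 123, 145, 94.2, 116 and 129 cpm (log2 fold change -2.41, SE 0.61, adjusted p = 0.00931; blocked, 0.0123). None of the 3 overlapped between groups. Ugt2b5, the leading member of all 5 GUCY2C-med libraries per kilobase, was not called, although its levels of 40.8, 13.9, 219, 16.3 and 346 cpm lay wholly below 643, 927, 566, 645 and 721 cpm (log2 fold change -2.46, SE 0.81, adjusted p = 0.0309). Ugt2a3 was likewise not called, with 23.3, 10.8, 177, 17.4 and 269 cpm below 432, 374, 440.0, 454 and 548 cpm (log2 fold change -2.17, SE 0.79, adjusted p = 0.0476). In both genes the GUCY2C-hi libraries of mice 12 and 15 were many times above the other 3, and without them the adjusted p was 1.48e-05 for Ugt2b5 and 2.14e-06 for Ugt2a3. That fit was added after these libraries were seen to differ, and it drops the highest GUCY2C-hi values of both genes. Its p-values therefore carry no weight for either gene. Ugt2b5 and Ugt2b38 share 95.1% of their coding bases, so reads may have been split between them. By mean share of the family per kilobase, Ugt2b5 took 37.7% in GUCY2C-med, and 20.4% in GUCY2C-hi libraries, while Ugt2b34 took 15.8% and 29.8%. Ugt2b34 exceeded Ugt2b5 in the GUCY2C-hi libraries of mice 2, 7 and 14, but in mice 12 and 15 Ugt2b5 was ahead, with 31.9% against 18.2% and 34.3% against 16.9%. These shares were not tested.

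Ugt8a was the 1 member of its family that was higher. It is a galactosyltransferase that makes the galactosylceramide of myelin and is not known as a drug-conjugating enzyme. It had 5.92, 5.55, 1.44, 5.24 and 1.76 cpm in GUCY2C-hi libraries and 0, 0, 0.648, 0 and 0 cpm in GUCY2C-med libraries (adjusted p = 0.00421; blocked, 0.0184), so 4 GUCY2C-med libraries held no read and the gene passed the filter through its GUCY2C-hi libraries alone. Its fitted log2 fold change of 4.75 (SE 1.02) rests on 1 GUCY2C-med library, that of mouse 12, since it was 8.75 without that library, a value that then depends on the prior count as no GUCY2C-med read was left, and 4.44 to 4.97 without any other single library. Among oligodendrocyte markers Mag, which likewise passed the filter only through its GUCY2C-hi libraries, had 6.19, 7.42, 0.833, 4.39 and 3.40 cpm against 0.281, 0, 0.432, 0.225 and 0.0856 cpm. Mog, too low to be tested, was at 0.567 cpm or less. Mbp, the most abundant of the list, had 53.6, 66.5, 44.1, 62.8 and 68.3 cpm against 37.0, 13.8, 41.1, 29.6 and 28.6 cpm and was not called (log2 fold change 0.98, SE 0.26, adjusted p = 0.0121). The summed list ran from 59.3 to 110 cpm in GUCY2C-hi and from 14.3 to 61.3 cpm in GUCY2C-med libraries. Their part in the Ugt8a result was not tested.

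Among sulfotransferases, Sult2b1, which sulfates cholesterol and other sterols, was the 1 lower member (ENSMUSG00000003271, chr7:45729983-45784669, minus strand). It had 42.6, 32.0, 171, 38.1 and 189 cpm in GUCY2C-hi and 419, 364, 401, 429 and 536 cpm in GUCY2C-med libraries (log2 fold change -2.18, SE 0.51, adjusted p = 0.00642), without overlap, and it kept the call with the mouse as a block. Sult1b1, a thyroid hormone and phenol sulfotransferase, had 70.9, 41.4, 536, 76.5 and 708 cpm against 1025, 1162, 1314, 1381 and 1429 cpm (log2 fold change -2.14, SE 0.72, adjusted p = 0.0351) and was not called. As for Ugt2b5, mice 12 and 15 held far more of it than the other GUCY2C-hi libraries, and without them the adjusted p was 2.38e-06. This p carries no weight either, as the fit was added after the libraries were seen to differ and drops the highest GUCY2C-hi values. Sult1d1, known for sulfating catecholamines, had 342, 289.8, 512, 567 and 609.5 cpm against 651, 607, 678, 787 and 859 cpm (log2 fold change -0.63, SE 0.24, adjusted p = 0.0586), with overlapping groups. By mean share of the sulfotransferase sum per kilobase, Sult1d1 took 61.9% of the GUCY2C-hi and 27.5% of the GUCY2C-med sum, and Sult1b1 took 21.6% and 42.7%. Sult1d1 was clearly ahead in the GUCY2C-hi libraries of mice 2, 7 and 14 (72.6% to 83.6%), whereas in mice 12 and 15 it took 39.6% and 37.5%, close to the 36.6% and 38.5% of Sult1b1. These shares were not tested.

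The remaining sulfotransferases tested were not called. The fitted log2 fold changes were -2.52 for Sult6b2 (adjusted p = 0.0488), -1.28 for Sult1c2 (adjusted p = 0.075) and 0.04 for Sult1a1 (adjusted p = 0.96). Sult4a1, a brain sulfotransferase, had 2.08, 14.7, 12.5, 1.77 and 40.7 cpm in GUCY2C-hi and 17.98, 0.803, 22.6, 20.5 and 8.13 cpm in GUCY2C-med libraries (log2 fold change 0.04, SE 0.87, adjusted p = 0.982). It spread widely within both groups. The summed forebrain neuron markers, 0 of 8 called, were 36.2, 426, 391, 39.4 and 1240.2 cpm and 526, 13.5, 687, 518 and 249 cpm in the same libraries, with Nrgn alone at 20.0, 305, 289, 21.9 and 933 cpm and 395, 8.91, 521, 387 and 176 cpm. Sult4a1 was highest where these markers were highest, in the GUCY2C-hi library of mouse 15, and lowest where they were lowest, in the GUCY2C-med library of mouse 7. Their part in its levels was not tested.

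Nat2, which acetylates arylamines, had 12.4, 4.58, 19.7, 12.4 and 26.4 cpm in GUCY2C-hi and 35.5, 32.0, 36.4, 37.6 and 43.0 cpm in GUCY2C-med libraries (log2 fold change -1.29, SE 0.36, adjusted p = 0.0152). The groups did not overlap, but the adjusted p missed the threshold. Nat1 had at most 9 reads in a library and was not tested.

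**Figure D4:**
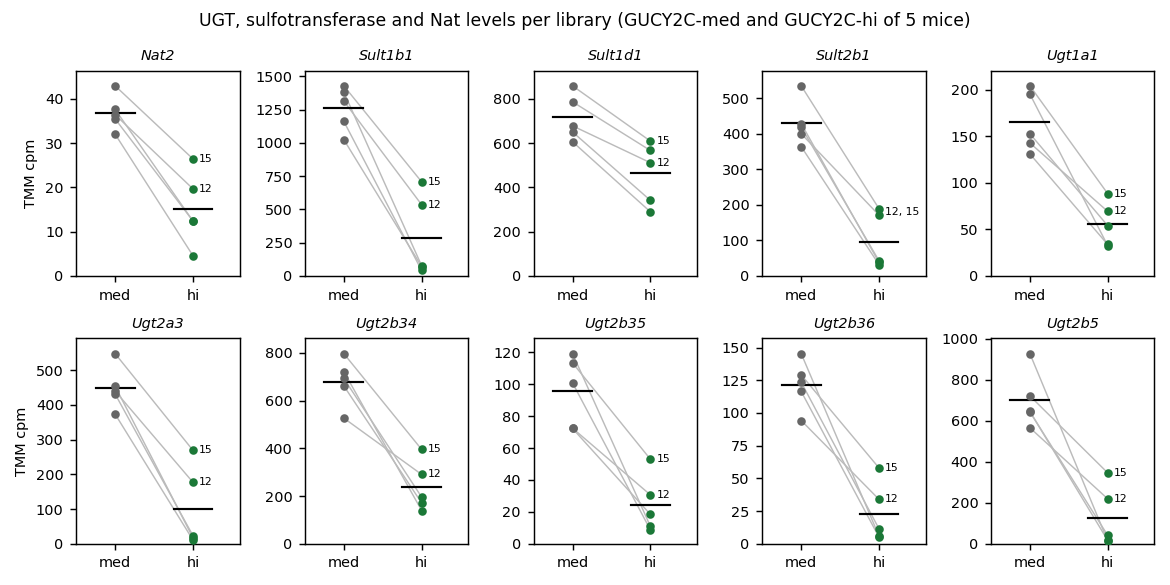
TMM-scaled cpm (vertical axes, linear from 0, scaled per gene) of Nat2 and of the named sulfotransferases and UDP-glucuronosyltransferases in GUCY2C-med (grey) and GUCY2C-hi (green) libraries; lines join the libraries of 1 mouse, bars are means of 5, and mice 12 and 15 are numbered. Sult1b1, Ugt2a3 and Ugt2b5 show a wide gap between those 2 points and the other 3 GUCY2C-hi points.

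Within each mouse, the GUCY2C-hi sum of a family was set against the GUCY2C-med sum. The glutathione transferase sum per kilobase was 25.6, 16.6, 55.4, 21.9 and 41.9% of the GUCY2C-med sum in mice 2, 7, 12, 14 and 15. For UDP-glycosyltransferases these percentages were 12.5, 6.94, 43.8, 12.4 and 48.4, and for sulfotransferases they were 22.9, 12.3, 51.1, 26.5 and 54.9. The enterocyte markers, summed as cpm without scaling by length, gave 7.47, 8.56, 46.1, 8.91 and 42.5% in the same mice. All 4 sums were thus highest in mice 12 and 15 and lower in the other 3, and all 15 family values were under 60%. For each of the 17 lower members, the GUCY2C-hi libraries of mice 12 and 15 held the highest levels of their group. The same order was seen in 66.5% of all genes called lower and in 21.1% of all genes tested. The part of enterocyte RNA in these levels was not tested. In mice 2, 7 and 14 the enterocyte sum was 7.47% to 8.91%. In the same unit, cpm not scaled by length, the UDP-glycosyltransferase sum was 8.91% to 15.1% in these mice. The glutathione transferase sum was 18.8% to 29.7% and the sulfotransferase sum 12.3% to 24.5%.

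**Figure D5:**
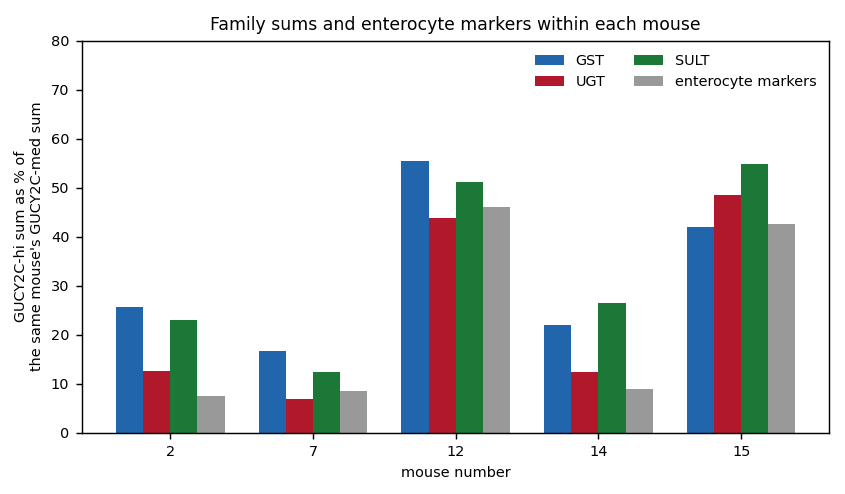
GUCY2C-hi sum as a percentage of the GUCY2C-med sum of the same mouse (vertical axis), for the 3 enzyme families (TMM-scaled cpm per kilobase) and for 22 enterocyte markers (TMM-scaled cpm); each bar is 1 pair of libraries, so there is no error bar. Mice 12 and 15 reach 41.9% to 55.4%, against 6.94% to 26.5% in the other mice.

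The genes of cofactor supply were examined by pathway. All 3 genes that make and carry UDP-glucuronate were lower in GUCY2C-hi cells, namely Ugp2 (79.8 ± 28.2 against 217 ± 45.1 cpm, log2 fold change -1.44, SE 0.25, adjusted p = 0.00139), Ugdh (409 ± 258 against 1576 ± 261 cpm, log2 fold change -1.95, SE 0.40, adjusted p = 0.00345) and the transporter Slc35d1 (log2 fold change -0.95, SE 0.20, adjusted p = 0.00415). Of 5 genes of PAPS supply, 2 were lower and 1 higher. The synthases were opposed, with Papss2 lower (179 ± 128 against 895 ± 194 cpm, log2 fold change -2.33, SE 0.46, adjusted p = 0.00267) and Papss1 higher (251 ± 90.1 against 111 ± 16.3 cpm, log2 fold change 1.18, SE 0.26, adjusted p = 0.00441). Neither synthase overlapped between groups. Bpnt1, which clears the spent cofactor, was lower (log2 fold change -1.67, SE 0.41, adjusted p = 0.00841). Of 7 glutathione genes 1, Gss, glutathione synthetase, was called and lower (log2 fold change -1.39, SE 0.24, adjusted p = 0.00122). Ggt1 (log2 fold change -2.59, SE 0.77, adjusted p = 0.02) and Dpep1 (log2 fold change -2.34, SE 0.60, adjusted p = 0.0103), which break down extracellular glutathione, lay wholly below GUCY2C-med in their GUCY2C-hi libraries without passing. Gsr, glutathione reductase (log2 fold change -0.68, SE 0.20, adjusted p = 0.021), had lower values in 5 of 5 mice and did not pass either. The subunits of the rate-limiting enzyme, Gclc (log2 fold change 0.36, adjusted p = 0.209) and Gclm (-0.46, 0.0603), were not called.

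Exporters and regulators also divided. Of 7 transporters, Abcc2 (-2.03), Abcg2 (-0.83) and the uptake carrier Slco2b1 (-2.48, log2 fold changes) were lower. Abcc1 (9.96 ± 5.40 against 1.55 ± 0.369 cpm, log2 fold change 2.68, SE 0.41, adjusted p = 0.000641) and Abcc4 (6.903 ± 3.13 against 0.784 ± 0.579 cpm, log2 fold change 3.11, SE 0.53, adjusted p = 0.00123) were higher. Abcc4, however, passed the filter only through its GUCY2C-hi libraries. Abcc2 and Abcg2 are known from the apical membrane, and Abcc1 and Abcc4 export conjugates and signaling lipids or nucleotides. Of 12 transcription factors linked to conjugation genes, 5 were lower and none higher: Nfe2l2 (154 ± 52.3 against 482 ± 91.2 cpm, log2 fold change -1.64, SE 0.26, adjusted p = 0.000763), Ahr (-1.44), the pregnane X receptor Nr1i2 (-1.25), Rxra (-1.56) and Vdr (-1.76, log2 fold changes). Hnf4a (-0.28, adjusted p = 0.292) was not called. Of 9 other conjugating or hydrolyzing enzymes, 3 were lower, among them Nqo1 (-0.98) and Ephx1 (-1.43, log2 fold changes), while Inmt, at 0.916 ± 0.331 against 0.0342 ± 0.0766 cpm, was higher but passed the filter only through its GUCY2C-hi libraries.

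The other 25 members did not pass the filter. No read was counted in any library for 13 of them, 8 sulfotransferases and 5 UDP-glycosyltransferases. Sult2a1 through Sult2a6, enzymes that sulfate bile acids and steroids in liver, were among these. The other 12 had at most 19 reads in a library, the highest being Ugt2b1 in GUCY2C-med. At this depth their levels in these cells could not be compared.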

How the data were processed

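The authors deposited raw whole-number read counts made by the sequencing provider, who aligned the reads with STAR; per the labels the build is mm9, and the submitters' processing notes name limma 3.40.6 and edgeR 3.26.8. All 70 members lie where GRCm38.p6 places them, against 3 of 65 in NCBIM37, so positions are on GRCm38. The gene length in the deposited table, another column of the authors, gave levels per kilobase. The deposited FPKM and normalized columns (20 in all) and the authors' comparison, which holds fold changes and p-values, were not used.

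The main test was run with edgeR 4.0.16 under R 4.3.3 (over 0.5 cpm in at least 3 libraries, TMM, quasi-likelihood test, no term for the mouse, adjusted p under 0.01 over 15703 genes). On simulated counts for this comparison with 15703 genes, it called 44 of 100 genes changed 4-fold, 1 of 100 changed 2-fold and 0 of 15503 unchanged genes. Alternatives were limma 3.58.1 (voom), DESeq2 1.42.0, other size factors and filters, the mouse as replicate block, each library left out, and Ugt1a counts summed. Same-numbered libraries were taken as pairs from 1 mouse, after the study's methods, and their deviations correlated at -0.11, -0.22, 0.27, -0.12 and 0.06. Differently numbered libraries correlated at -0.513 to 0.542, the highest being GUCY2C-hi of mouse 2 with GUCY2C-med of mouse 7. These correlations thus do not bear out the pairing, which the blocked fits and within-mouse percentages take as given. Coding sequences (GENCODE vM1) of 43 tested members were aligned with Biopython 1.88, in place of the proteins, which were not used here. Figures were made in Python 3.11.15 with matplotlib 3.10.9.

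The members, gene lists, tests and naming rule were chosen with earlier results of these data known. Library values are printed for members called at a mean of at least 5 cpm and for the 3 most abundant of each family, and other called members are named. Some genes of the fixed lists are not reported here.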

Additional observations from a re-analysis of the deposited data

Results flagged for a closer look

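In 3 of 52 groups of 5 libraries examined, 1 library stood apart from the other 4 by more than Dixon's 95% critical value of 0.710, and chance flags about 1 in 20 groups. Gsta1 was at 167.6 cpm in the GUCY2C-med library of mouse 7, where the other 4 lay between 42.7 and 75.1 cpm. Gsta3 was at 153.1 cpm in the same library, against 29.8 to 55.7 cpm. Ugt8a was at 0.648 cpm in the GUCY2C-med library of mouse 12 and at 0 in the other 4. The causes were not tested.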

How the results depend on the processing

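No named member changed direction under any alternative. The 17 lower and 3 higher calls of the main analysis became 26 lower with DESeq2, 9 lower with library size only, 7 lower and 1 higher with the mouse as replicate block in edgeR, 29 lower at an adjusted p under 0.05, 1 higher where at least 10 counts in every library were required, and 29 lower without both GUCY2C-hi libraries of mice 12 and 15. The share of all genes called lower was 8.79% in the main analysis, 14.2% with DESeq2 and 11.4% with limma-voom. It was 3.55% with library size only, 4.96% with the block in edgeR, 17.6% at 0.05 and 14.4% without both libraries. The share called higher was 8.24% with the block in edgeR and 14.2% with at least 10 counts. The filter of at least 10 counts removed Gsto2 and Ugt8a before testing, so they were not tested there. The block in edgeR changed the call of the members given with a blocked p and of no other named member. The block in limma-voom gave 23 lower and 3 higher, beside 8.8% and 11.6% of all genes. Leaving out 1 library at a time gave 4 to 20 lower and 2 to 3 higher, beside 3.32% to 10.4% and 10.6% to 16.5% of all genes. For glutathione transferases, 12 lower became 7 with library size only and 4 with the block in edgeR, and 3 to 14 with 1 library left out. Their 2 higher became 1 with the block, where Gstt1 lost its call. With at least 10 counts 1 was higher, as Gsto2 was not tested. For UDP-glycosyltransferases, 4 lower became 7 with limma-voom, with DESeq2 and with the block in limma-voom, 2 with library size only and with the block in edgeR, 9 at 0.05 and without both libraries, and 1 to 6 with 1 left out. Their 1 higher became 0 with the block in edgeR, and 0 to 1 with 1 left out. With at least 10 counts 0 were higher, as Ugt8a was not tested. For sulfotransferases, 1 lower became 2 with limma-voom and with the block in limma-voom, 3 with DESeq2, at 0.05 and without both libraries, 0 with library size only, and 0 to 1 with 1 left out. Where counts fell with fewer libraries, fewer samples were fitted; other causes were not tested. The other settings, RLE and upper-quartile factors, no filter and the summed Ugt1a counts, stayed within 1.5 times. Precision rests on 5 libraries per group, and members with few reads could not be compared.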
